A study of Arabidopsis thaliana with 4 samples.

Results

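The 43 genes described here are chloroplast-encoded genes for the photosynthetic machinery of Arabidopsis thaliana. They were chosen as probe sets that name 1 gene with a chloroplast locus tag and a symbol that is rbcL or starts with psa, psb, pet, atp or ndh, out of 22746 probe sets in all, and each gene had 1 such probe set. Grouped by symbol, they are 1 gene of Rubisco (rbcL), 5 of photosystem I (psa), 15 of photosystem II (psb), 6 of the cytochrome b6f complex (pet), 6 of the ATP synthase (atp) and 10 of the NDH complex (ndh). The grouping follows the symbol alone and does not state that each product is a subunit of its complex. The RefSeq table holds 44 genes that meet the symbol rule. The remaining gene, ndhB, lies in both copies of the chloroplast inverted repeat, and its probe set names both, so it is not counted among the 43; its log2 signal was 8.38 in wild type, with gl1 at 8.35, ttg1 at 8.23 and gl3 egl3 at 9.07. The genes given as markers of the set, rbcL, petD, psaB, psaC, ndhE and ndhG, are all among the 43.

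The data were 4 array profiles of seedlings grown at 22 °C in days of 16 h light and 8 h darkness, with 1 array each for wild type and for 3 mutants that lack trichomes, gl1, ttg1 and the double mutant gl3 egl3. The design text sets the mutants against wild type in search of transcripts enriched in trichomes. These mutants lack regulators of 1 pathway, a MYB factor (GL1), a WD40-repeat protein (TTG1) and a pair of bHLH factors (GL3 and EGL3), and the labels name no alleles. Wild type, ttg1 and gl3 egl3 were 20 days old, and the labels give no age for gl1. The labels of wild type, gl1 and ttg1 state that green tissue alone was used, and those of gl3 egl3 do not state it. L.er (Landsberg erecta) is named as the reference of ttg1 and of gl3 egl3, and no accession is given for wild type and gl1, so accession and genotype cannot be told apart. The series text writes the double mutant as gl3egl1 and the sample title as gl3egl3, and the title was followed here.

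The chloroplast genome is a remnant of a cyanobacterial genome and keeps genes for core subunits of the photosynthetic complexes, while the nucleus encodes the remaining subunits. Its genes are mostly transcribed in long units that span several genes and are then cut and trimmed, so neighbouring genes can share a primary transcript. A bacterial-type polymerase whose core is encoded in the chloroplast transcribes most photosynthesis genes, and a phage-type polymerase from the nucleus transcribes genes such as rpoB and accD. In green leaves these transcripts are among the most abundant of the cell. They lack the long poly(A) tails of nuclear mRNA.

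Values are log2 probe set signals, quantile normalized between the 4 arrays. A probe set was tested where its highest value reached 6.26, the median of all values, which 12601 probe sets did. Of the 43 genes, 42 reached that value in every array, and ndhF did not in any. With 1 array per genotype, no difference between a mutant and wild type has a replicate check. The 3 differences also share the wild-type array. Deposited wild-type values are all multiples of 0.005 and those of the other arrays are not, and whether that column was rounded or is a mean of several arrays was not tested. Signals of different probe sets depend on their probes and were not compared as transcript levels.

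The gl3 egl3 array stood apart at these genes. It gave the highest of the 4 values for 36 of the 43 genes (83.7%), where it did so for 34.4% of all probe sets tested. Compared with wild type, 12 of the 43 (27.9%) were at least 2-fold higher in gl3 egl3 and none was 2-fold lower, against 6.63% higher and 7.37% lower among all probe sets tested (6.83% higher among those that name 1 gene). Of the 43, 37 were above wild type in gl3 egl3 to any extent, 14 in gl1 and 16 in ttg1, where 51.2%, 51.7% and 54.2% of all probe sets were. The median difference of the 43 was 0.64 (log2) and ran from -0.73 to 2.46, while the median of all probe sets tested was 0.02. In gl1 the median was -0.26 (range -1.08 to 0.43) and in ttg1 -0.07 (range -0.78 to 0.89). No gene of the set was 2-fold higher in gl1 or ttg1, where 0.968% and 1.79% of all probe sets were, and psbJ alone was 2-fold lower, in gl1 (1.9% of all probe sets, and 3.78% in ttg1). No gene of the set was 2-fold higher or lower in all 3 mutants, where 0.373% and 0.516% of all probe sets were. In 10 genes (23.3%, against 2.84%) gl3 egl3 was 2-fold above each other array, namely rbcL, petD, petG, petN, atpI, psaC, psbN, ndhG, ndhH and ndhJ. In bulk seedlings, a different share of green cells and a different amount of chloroplast RNA per cell cannot be told apart.

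**Figure D1:**
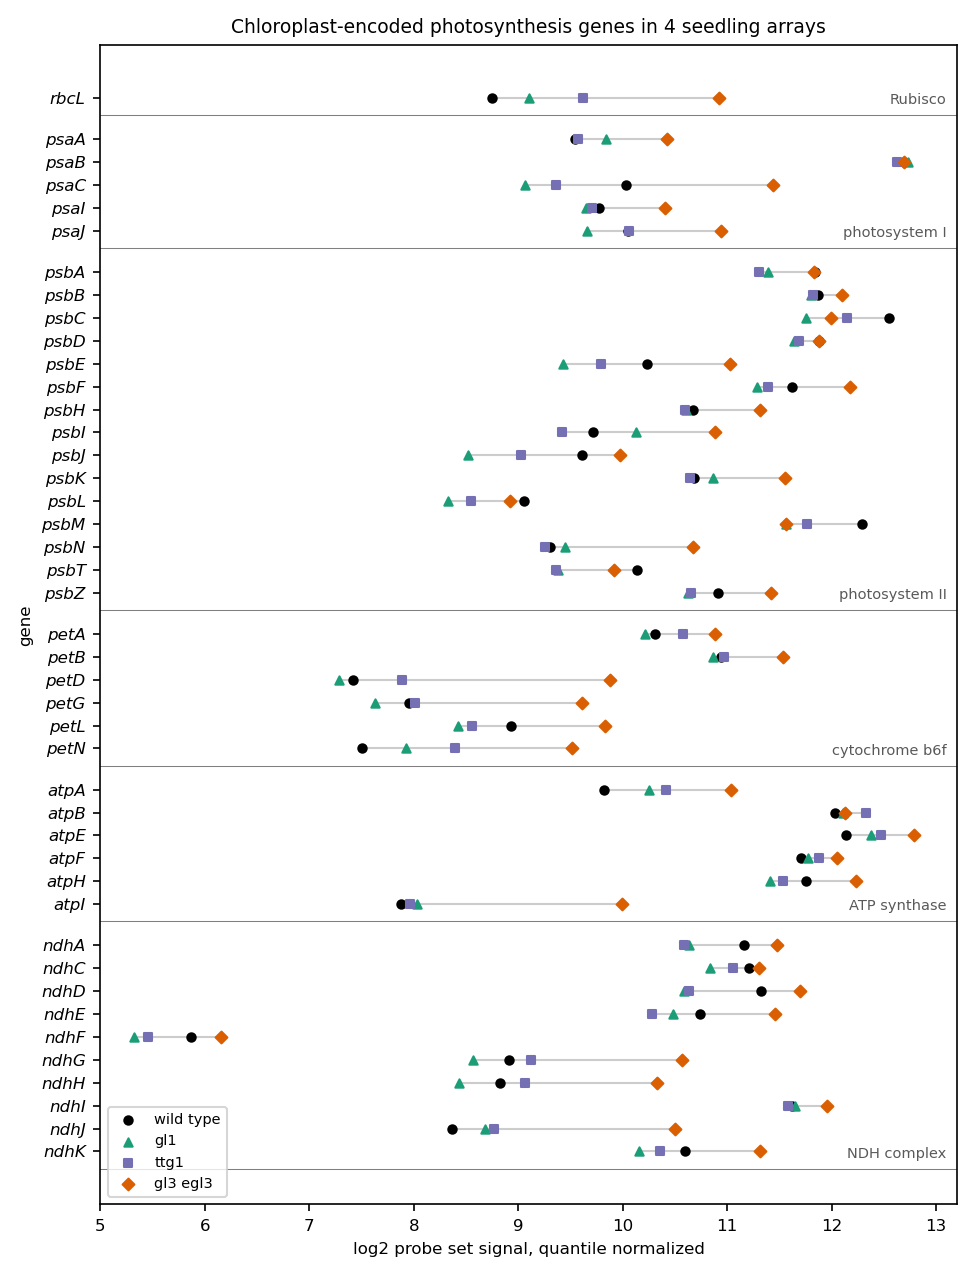
Log2 quantile-normalized signal of each of the 43 genes (rows, grouped by complex) in the 4 arrays, with 1 point per array and a grey line over their range. The gl3 egl3 point lies to the right of the others in 36 rows, and psbM, psbC, psbL and psbT are among the rows where wild type lies highest.

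The deposited values, which have no scaling between arrays beyond the authors' own, gave the same direction in gl3 egl3. There 17 of the 43 were 2-fold higher and 0 lower, where 12.9% of all probe sets were higher and 3.75% lower. In ttg1 2 of the 43 were 2-fold higher there (6.28% of all probe sets; 2.33% lower), and in gl1 none was higher or lower (5.33% and 0.851%). Among probe sets 2-fold apart in gl3 egl3, 77.5% were higher in the deposited values and 47.4% after quantile normalization. The deposited columns differ by an offset, with a median difference from wild type over all probe sets past the filter of 0.34 for gl1, 0.29 for ttg1 and 0.30 for gl3 egl3. Relative to the median of all probe sets, the median of the 43 in gl3 egl3 was 0.62 higher after quantile normalization, 0.61 in the deposited values, 0.67 after cyclic loess and 0.62 after the median of each array was subtracted. The same measure in gl1 was -0.27, -0.42, -0.27 and -0.42, and in ttg1 it was -0.11, -0.32, -0.08 and -0.32.

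rbcL codes for the large, catalytic subunit of Rubisco, the enzyme that fixes carbon dioxide. Its signal was 8.75 in wild type, with gl1 at 9.11, ttg1 at 9.62 and gl3 egl3 at 10.92. Each mutant was above wild type, and gl3 egl3 was 4.50-fold above it. Set against the other 3 arrays, gl3 egl3 differed by 1.76 ± 0.37 (log2, SE), which limma did not call over all probe sets (adjusted p = 0.108). The small subunit of Rubisco is encoded in the nucleus, and none of 4 listed RBCS genes is named by a probe set here.

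The cytochrome b6f genes gave the highest median difference among complexes with several members, at 1.27 (log2) in gl3 egl3, with 6 of 6 above wild type under each of the 4 scalings. Their median signal in gl1, which does not enter that difference, was also the lowest of these complexes, at 8.18 against 9.66 to 11.59. The part of signal in this ranking was not tested. petD, which codes for subunit IV of the complex, was at 7.42 in wild type, with gl1 at 7.29, ttg1 at 7.89 and gl3 egl3 at 9.88. Its 5.51-fold difference between gl3 egl3 and wild type was the largest of the 43. Against the other 3 arrays it was 2.35 ± 0.30 (log2, SE, limma adjusted p = 0.055). petG, a small subunit, was at 7.96, 7.63, 8.01 and 9.61 in wild type, gl1, ttg1 and gl3 egl3, so the first 3 arrays lay close together and gl3 egl3 stood above them by 1.60. petN, another small subunit, was at 7.50 in wild type, with gl1 at 7.93, ttg1 at 8.40 and gl3 egl3 at 9.51. Like rbcL, it was lowest in wild type and highest in gl3 egl3, with ttg1 above gl1.

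Differences were smaller for the larger electron carriers of this complex. petA, the gene of cytochrome f, was at 10.31, 10.22, 10.58 and 10.89 in wild type, gl1, ttg1 and gl3 egl3. petB, the gene of cytochrome b6, was at 10.94, 10.86, 10.97 and 11.53 in the same order. In gl3 egl3 they were 1.49-fold and 1.51-fold above wild type, where petD, which lies beside petB, was 5.51-fold above it. petL, a small subunit, was at 8.94 in wild type, with gl1 at 8.42, ttg1 at 8.56 and gl3 egl3 at 9.83.

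Of the ATP synthase genes, atpI was the only gene of the set called by limma. It codes for a membrane subunit of the proton channel and was at 7.88 in wild type, with gl1 at 8.03, ttg1 at 7.96 and gl3 egl3 at 10.00. The first 3 arrays had an SD of 0.08 around 7.96, and gl3 egl3 was 2.04 ± 0.20 above them (log2, SE, limma adjusted p = 0.042). The call was lost in 5 of 7 alternatives, where adjusted p over all 7 ran from 0.010 to 0.187 and the difference from 1.93 to 2.096. It was lost without the wild-type array (adjusted p = 0.187) and without the gl1 array (adjusted p = 0.176), and under each of the 3 other scalings. The limma fit takes the lone gl3 egl3 array to vary like the other 3.

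The remaining ATP synthase genes differed less. atpA, the gene of the alpha subunit, was at 9.82 in wild type, with gl1 at 10.25, ttg1 at 10.41 and gl3 egl3 at 11.04, which was 2.33-fold above wild type. atpB, the gene of the catalytic beta subunit, was at 12.04, 12.10, 12.33 and 12.13 in wild type, gl1, ttg1 and gl3 egl3, and was the only gene of the 43 highest in ttg1. atpE, atpF and atpH, which code for the epsilon subunit, a stalk subunit and the ring subunit, were 0.65, 0.35 and 0.48 above wild type in gl3 egl3. All 6 genes were above wild type in gl3 egl3 under each scaling, while 5 of 6 were above it in gl1 and ttg1 (2 and 1 of 6 where the array median was subtracted).

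The NDH complex passes electrons from ferredoxin back to the plastoquinone pool in cyclic flow around photosystem I. All 10 of its genes were above wild type in gl3 egl3 (9 of 10 where the array median was subtracted), with a median of 0.54. In gl1 8 of 10 lay below wild type and in ttg1 7 of 10, by medians of -0.39 and -0.20. ndhJ was at 8.37 in wild type, with gl1 at 8.69, ttg1 at 8.76 and gl3 egl3 at 10.50, a 4.39-fold difference. ndhG was at 8.91, 8.57, 9.12 and 10.56 in wild type, gl1, ttg1 and gl3 egl3, and ndhH at 8.83, 8.43, 9.07 and 10.33. These 3 genes were the only NDH genes 2-fold higher in gl3 egl3.

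Among the other NDH genes, ndhE was at 10.74 in wild type, with gl1 at 10.48, ttg1 at 10.28 and gl3 egl3 at 11.46. ndhD was at 11.32, 10.58, 10.63 and 11.70, and ndhA at 11.16, 10.63, 10.59 and 11.47, in wild type, gl1, ttg1 and gl3 egl3. In these 3 genes wild type and gl3 egl3 both lay above gl1 and ttg1. ndhC, ndhI and ndhK were 0.10, 0.34 and 0.72 above wild type in gl3 egl3. ndhF, below the level filter and not tested, was at 5.86, 5.33, 5.46 and 6.16 in wild type, gl1, ttg1 and gl3 egl3.

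After quantile normalization the narrowest range of the 43 over the 4 arrays was that of psaB. This gene, which codes for a reaction-centre protein, was at 12.69 in wild type, with gl1 at 12.73, ttg1 at 12.63 and gl3 egl3 at 12.69. In the deposited values psaB was 0.57 above wild type in gl3 egl3, and atpB, psbL, psbD and ndhC had narrower ranges. The partner protein's gene psaA was at 9.54, 9.84, 9.57 and 10.42 in wild type, gl1, ttg1 and gl3 egl3. psaC, which codes for the iron-sulfur protein that hands electrons to ferredoxin, went in opposite directions between mutants. It was at 10.03 in wild type, with gl1 at 9.07, ttg1 at 9.36 and gl3 egl3 at 11.44, so gl3 egl3 was 2.66-fold above wild type while gl1 lay 0.97 (log2) and ttg1 0.67 (log2) under it. Against the other 3 arrays gl3 egl3 differed by 1.96 ± 0.40 (log2, SE, limma adjusted p = 0.107). The small-subunit genes psaI and psaJ were 0.64 and 0.89 above wild type in gl3 egl3.

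Photosystem II genes had the smallest median in gl3 egl3 among the 6 groups, at 0.37, and 10 of 15 were above wild type (9 to 12 of 15 over the 4 scalings). In ttg1 all 15 were below wild type (13 of 15 in the deposited values) by a median of -0.30, and in gl1 12 of 15 were (10 to 14 over the scalings) by a median of -0.34. None of the 15 was 2-fold lower in ttg1. The 5 genes of the set with their highest value in wild type (11.6%, against 24.9% of all probe sets) were all in this group. In the deposited values wild type was highest for 3 of the 43, where it was for 1100 of 12810 probe sets. With the array median subtracted it was highest for 7, against 5273 of 12601. psbM, a small subunit gene, was at 12.29 in wild type, with gl1 at 11.56, ttg1 at 11.76 and gl3 egl3 at 11.57. psbC, the gene of an inner antenna protein, was at 12.55, 11.75, 12.15 and 11.99 in wild type, gl1, ttg1 and gl3 egl3. In both genes all 3 mutants lay below wild type, by means of -0.66 ± 0.12 and -0.58 ± 0.20 (SD, n = 3 mutants).

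The small-subunit genes psbT and psbL were also lower in each mutant, except that psbL in gl3 egl3 was 0.04 above wild type in the deposited values. psbT was at 10.14 in wild type, with gl1 at 9.38, ttg1 at 9.36 and gl3 egl3 at 9.92. psbL was at 9.06, 8.33, 8.55 and 8.92 in wild type, gl1, ttg1 and gl3 egl3. psbA and psbD, which code for the paired reaction-centre proteins, were within 0.01 of wild type in gl3 egl3, and 0.34 and 0.38 above it in the deposited values. psbA was at 11.84 in wild type, with gl1 at 11.39, ttg1 at 11.30 and gl3 egl3 at 11.83, and psbD at 11.88, 11.64, 11.69 and 11.88. psbB, the gene of the other inner antenna protein, was 0.23 above wild type in gl3 egl3.

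Several other photosystem II genes were above wild type in gl3 egl3 and below it in gl1 and ttg1. psbE, which codes for a cytochrome subunit, was at 10.23 in wild type, with gl1 at 9.43, ttg1 at 9.79 and gl3 egl3 at 11.03. psbJ was at 9.61, 8.52, 9.02 and 9.97 in wild type, gl1, ttg1 and gl3 egl3, and its -1.08 in gl1 was the only 2-fold lower value of the set. psbF, psbH and psbZ were 0.55, 0.65 and 0.51 above wild type in gl3 egl3 with the same pattern. psbI, psbK and psbN lay above wild type in gl1 as well. psbN was at 9.30 in wild type, with gl1 at 9.45, ttg1 at 9.26 and gl3 egl3 at 10.67, and psbI at 9.72, 10.12, 9.42 and 10.88. psbN lies on the strand opposite to its neighbours psbT and psbH, and whether its probes separate the strands was not tested.

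**Figure D2:**
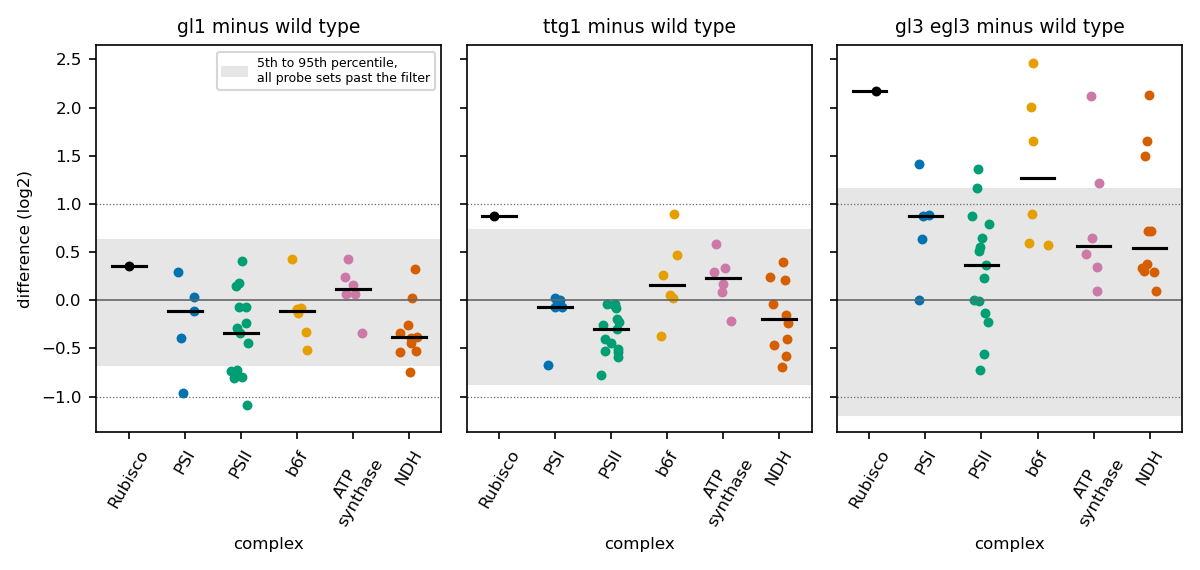
Difference of each mutant from wild type (log2) for the 43 genes by complex, 1 point per gene, with the median of each complex as a black bar, the 5th to 95th percentile of all probe sets past the filter as a grey band and dotted lines at 2-fold. In gl3 egl3 the median of cytochrome b6f genes lies at 1.27 and that of photosystem II (PSII) genes at 0.37, and all 15 photosystem II genes lie below 0 in ttg1.

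The ordering of the arrays was described for each gene. The most frequent order, found in 14 of the 43, was gl1 lowest, then ttg1, then wild type, with gl3 egl3 highest. A further 7 had wild type and ttg1 exchanged, and 6 rose from wild type through gl1 and ttg1 to gl3 egl3. These full orders were not counted over all probe sets. gl1 gave the lowest value for 24 of the 43 genes (55.8%), where it did so for 21.4% of all probe sets tested. Wild type was lowest for 9 (20.9%, against 30%) and ttg1 for 10 (23.3%, against 15.8%). In the deposited values gl1 was lowest for 15 of the 43, where it was for 1010 of 12810 probe sets past the filter. After the median was subtracted it was lowest for 28, against 3199 of 12601.

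Limma fits across all 12601 probe sets gave the tests that 4 arrays allow. With gl3 egl3 set against the other 3 arrays, 1 of 42 genes tested was called higher (2.38%, against 0.611% of all probe sets) and 0 lower (0.103%), and 25 of 42 were higher at an unadjusted p under 0.05 (59.5%, against 9.76%, and 18.9% of all probe sets in either direction). The median difference of the 42 was 0.76 and that of all probe sets -0.003. Besides atpI, the smallest adjusted p from limma were 0.055 for petD, 0.056 for ndhJ, 0.060 for petG, 0.072 for psbN, 0.076 for ndhG and 0.097 for ndhH. Over all probe sets this fit called 77 higher and 13 lower. The deposited values gave 36 and 0 instead, and cyclic loess none. The median difference over the set was 0.73 with the ttg1 array left out, 0.79 without the wild-type array and 0.68 without the gl1 array.

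With the 3 mutants set against wild type, limma called none of the 42 and none of all 12601 probe sets. At an unadjusted p under 0.05, 1 of the 42 was lower (psbM) and 0 higher, where 2.72% of all probe sets were higher and 5.1% differed in either direction. The largest means over the mutants were 1.13 ± 0.93 for rbcL and 1.11 ± 0.81 for petN (SD, n = 3 mutants), and their limma adjusted p was 0.856 each. These SDs do not hold the error of the wild-type array that all 3 differences share. In both genes the SD was close to the mean, with gl3 egl3 far above gl1.

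With ttg1 and gl3 egl3 set against wild type and gl1, limma called 0 of the 42, where 0.0397% of all probe sets were called higher and 0.381% lower. At an unadjusted p under 0.05, 3 of the 42 were higher (7.14%, against 3.52%) and 0 lower (9.3% of all probe sets differed in either direction). petD differed by 1.53 ± 0.61, rbcL by 1.34 ± 0.44 and petN by 1.24 ± 0.41 (log2, SE), with limma adjusted p of 0.522, 0.422 and 0.420. Both arrays of the pair lay above both others for 14 of the 43 genes (32.6%, against 22.9% of all probe sets). For none did both lie below (17.9%). The 14 genes with both above became 13 in the deposited values (3009 of 12810 probe sets) and 13 after cyclic loess (2563 of 12549). With the array median subtracted they were 6 of the 43, against 1961 of 12601 probe sets. Without the ttg1 array this fit is gl3 egl3 against wild type and gl1, and the median difference over the 42 was 0.73, against 0.33 with all 4 arrays.

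Genes that lie side by side and are known to be transcribed together differed widely in gl3 egl3. In the unit psbB, psbT, psbH, petB and petD, differences from wild type ran from -0.22 for psbT to 2.46 for petD. In the unit atpI, atpH, atpF and atpA they ran from 0.35 for atpF to 2.12 for atpI, and in ndhC, ndhK and ndhJ from 0.10 for ndhC to 2.13 for ndhJ. Within psaA, psaB and rps14, the ribosomal gene rps14, named for its place in the unit after its value was seen, was 1.59 higher and psaB equal to wild type (0.57 above it in the deposited values). In the long unit of ndhD, psaC, ndhE, ndhG, ndhI, ndhA, ndhH and rps15, the lowest was ndhA at 0.31 and the highest ndhG at 1.65. In each of these units the gene with the largest difference had a lower signal in gl1 than the gene with the smallest. Signals in gl1, which does not enter the difference, were 7.29 for petD and 9.38 for psbT, and 8.03 for atpI and 11.77 for atpF. They were 8.69 for ndhJ and 10.83 for ndhC. The part of signal in these ranges was not tested. The units with the narrowest ranges were psbK with psbI, at 0.87 and 1.16, and atpB with atpE, at 0.10 and 0.65. These were also the units with the fewest genes, 2 each, and a range tends to widen with the number of genes.

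**Figure D3:**
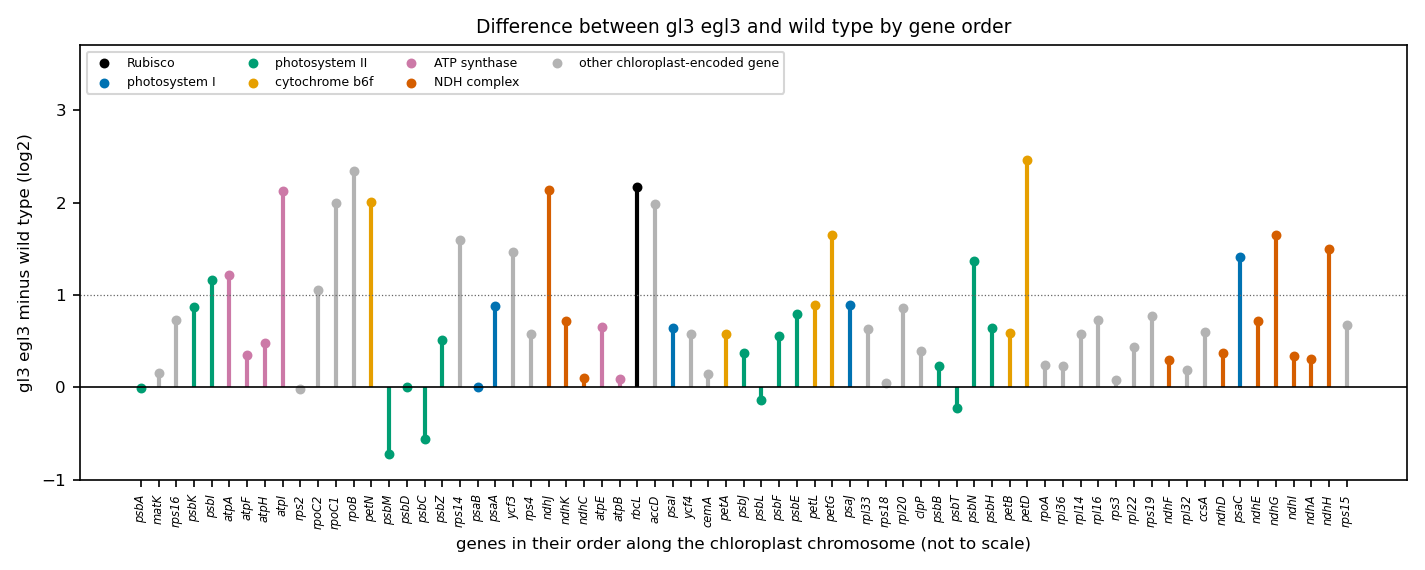
Difference between gl3 egl3 and wild type (log2) for the 43 genes, coloured by complex, and 26 other chloroplast-encoded genes in grey, placed in their order along the chloroplast chromosome and not to scale, with a dotted line at 2-fold. Neighbours can differ widely, as petD at 2.46 and petB at 0.59 do, and so can their signals, which were 7.29 and 10.86 in gl1.

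The difference in gl3 egl3 moved with the signal of the probe set. Across the 43 genes, the difference between gl3 egl3 and wild type correlated with the mean signal in gl1 and ttg1, which enter neither value, at Pearson r = -0.577 and Spearman rho = -0.632. These are correlations across genes of the same 4 arrays, and the genes are not independent replicates. Of 11 genes with a mean signal under 9 in gl1 and ttg1, 7 were 2-fold higher in gl3 egl3, with a median of 1.65. Of 20 between 9 and 11, 5 were, with a median of 0.72, and of 12 at 11 and over none was, with a median of 0.16. Among all probe sets tested the medians in these ranges were 0.02, 0.03 and -0.01, and 7.97%, 3.19% and 1.1% were 2-fold higher. The SD over the 43 signals was 1.17 in gl3 egl3 and 1.499 to 1.57 in the other arrays.

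**Figure D4:**
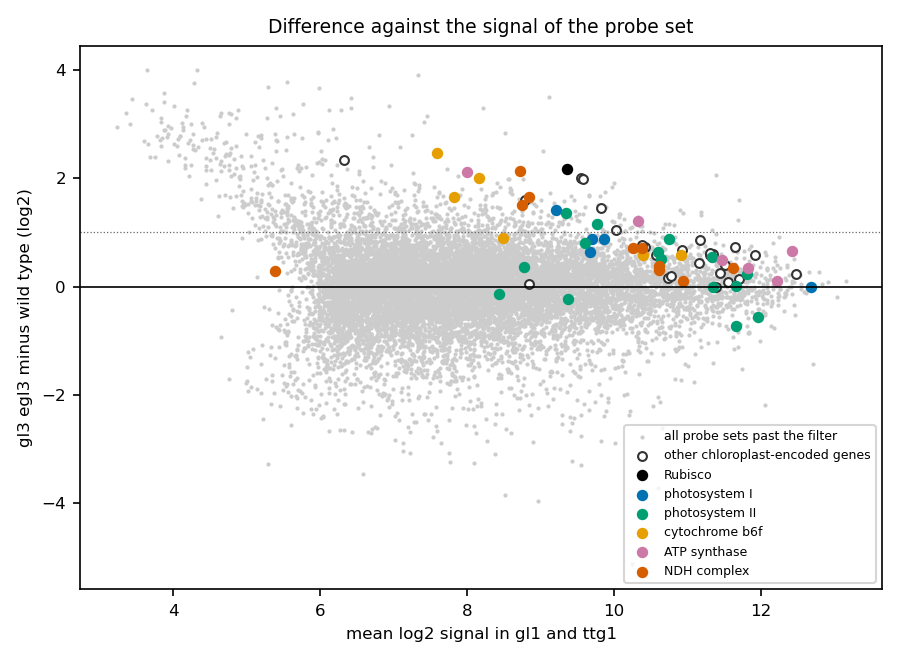
Difference between gl3 egl3 and wild type (log2) against the mean log2 signal in gl1 and ttg1, with the 43 genes coloured by complex, 26 other chloroplast-encoded genes as open circles and all probe sets past the filter in grey. The 12 genes with a signal of 11 and over all lie below the dotted 2-fold line, and 7 of the 11 with a signal under 9 lie above it.

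The other chloroplast-encoded genes were also mostly above wild type in gl3 egl3. Of 26 such genes that a probe set names alone, 25 were above wild type in gl3 egl3, where 51.2% of all probe sets tested were. In gl3 egl3 6 of the 26 were 2-fold higher, against 6.63% of all probe sets. The median difference of the 26 was 0.59. rpoB, the gene of the beta subunit of the chloroplast polymerase, was at 6.21 in wild type, with gl1 at 6.16, ttg1 at 6.49 and gl3 egl3 at 8.55, and limma called it higher in gl3 egl3 against the other 3 arrays (2.27 ± 0.23, SE, adjusted p = 0.042). rpoC1, another polymerase subunit gene, and accD, which codes for a subunit of acetyl-CoA carboxylase, were 3.997-fold and 3.95-fold above wild type. The gene below wild type was rps2, a ribosomal gene named after its value was seen, at -0.01. accD had the largest mean over the 3 mutants, at 1.33 ± 0.61, and the ribosomal gene rps18 the lowest, at -0.39 ± 0.43 (SD, n = 3 mutants).

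Nuclear genes of the same complexes were compared next. Of 80 listed, 13 are named by a probe set alone, all 13 passed the level filter and limma called none in any of the 3 fits (0.611% of all probe sets were called higher in gl3 egl3 against the other 3). Their median in gl3 egl3 was 0.34 and 2 of the 13 were 2-fold higher, where 6.63% of all probe sets were. The order against the chloroplast genes depended on signal, in the ranges used above: the nuclear median was 0.14 under 9 (3 genes), 0.79 from 9 to 11 (4 genes) and 0.37 at 11 and over (6 genes), against 1.65, 0.72 and 0.16. LHCB4.2, a light-harvesting gene of photosystem II, was at 9.87 in wild type, with gl1 at 11.11, ttg1 at 10.68 and gl3 egl3 at 11.30, a mean difference of 1.15 ± 0.32 (SD, n = 3 mutants). NdhS, the gene of a ferredoxin-binding subunit of the NDH complex, was at 10.15, 10.80, 10.83 and 11.29 in wild type, gl1, ttg1 and gl3 egl3. The lowest means were -0.34 for LHCB4.3 and 0.01 for NdhN. ATPC1, the gene of the gamma subunit of the ATP synthase, was at 12.01, 12.15, 12.00 and 12.12, and differed by 0.11 between gl3 egl3 and wild type. The chloroplast genes atpB, atpE, atpF and atpH of the same complex differed by 0.10, 0.65, 0.35 and 0.48. Their signals were also 11 and over in gl1 and ttg1.

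Tissue markers that could be read differed little. RCA, the Rubisco activase gene of green tissue, was at 12.19 in wild type, with gl1 at 12.21, ttg1 at 12.23 and gl3 egl3 at 12.30. Of 13 Calvin cycle and leaf genes 4 are named, limma called none, and their differences in gl3 egl3 ran from -0.14 to 0.39. The 4 leaf genes all had signals of 11 and over in gl1 and ttg1. In that range the chloroplast genes of the set had a median of 0.16 in gl3 egl3, and none was 2-fold higher. The share of green tissue was not tested. Of 20 root markers 3 are named, and none was higher in gl3 egl3 by more than 0.04. PYK10, a root and seedling glucosidase gene, was at 11.18 in wild type and 10.91 in gl3 egl3, while EXPA7, at 3.35 and 3.39, and EXPA18, at 5.34 and 3.89, lay below the level filter. PYK10 was therefore the only root marker that could be read, and the part of root tissue in these results was not tested.

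Control probe sets differed between arrays too. The 5S rRNA value, after the median of each array was subtracted, exceeded wild type by 1.19 for gl1, 1.60 for ttg1 and 2.81 for gl3 egl3, while 25S rRNA differed from it by -0.43, -0.55 and -0.83. The deposited difference between 3′ and 5′ probe sets of actin was 3.56 in wild type, with gl1 at 3.65, ttg1 at 3.74 and gl3 egl3 at 4.23, that of ubiquitin 2.15, 2.17, 2.56 and 2.86, and that of GAPDH 1.46, 1.05, 1.14 and 1.47. The median of 15 bacterial control probe sets was 3.06, 3.29, 3.15 and 4.11 as deposited. These medians lay below the 25th percentile of each array, which was 3.755, 4.07, 4.12 and 4.93. The lowest deposited values of the arrays were 2.185, 2.41, 2.46 and 3.50 in the same order. The part of the control differences in the chloroplast values was not tested.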

How the data were processed

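The authors deposited log2 probe set values, made with RMA per the submitters' processing notes. Its version and any scaling between arrays were not given in the sources used here. Per the labels' protocols, biotin-labelled cDNA was amplified from 25 ng of total RNA with a chimeric DNA and RNA primer. The table's 64 control probe sets were left out of the tests, and 22746 remained. Deposited medians ran from 5.93 in wild type to 6.40 in gl1 and SDs from 2.01 in gl3 egl3 to 2.41 in wild type, so values were quantile normalized (limma 3.58.1, R 4.3.3). Probe sets with their highest value at or above 6.26 were tested with lmFit and eBayes, with Benjamini-Hochberg adjustment over all 12601 at 0.05.

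Platform annotation names 1 gene for 13513 probe sets, several for 503 and none here for 8730; 13436 were matched through Entrez numbers to RefSeq (TAIR10.1). The files name no genome build, so no coordinates are given and RefSeq served for names and gene order only. Any gene of the set could be named, and list genes were named by a rule on the highest and lowest mean differences. The set, the gene lists and the fits were chosen with earlier results of these data known, and the transcription units and signal ranges after the values were seen. No probe or gene sequences were used here. No label speaks of separate plantings or cultures. Each genotype has 1 array, so the spread behind each limma p-value and SE is that between arrays of different genotypes. It holds no replicates of a genotype, and precision is limited by the number of arrays. Alternatives were other scalings, no level filter, a 1.5-fold rule and leaving out each array.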

Additional observations from a re-analysis of the deposited data

Results flagged for a closer look

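Opposite differences of at least 1.5-fold from wild type in different mutants were found in 2 of the 43 genes. For psaC the mutants spanned 2.37 (log2) and for psbE 1.60, with gl3 egl3 highest and gl1 lowest in both. With 1 array per genotype, the difference between mutants was not tested. The control probe set for 5S rRNA, which entered no comparison, exceeded wild type by 1.19 for gl1, 1.60 for ttg1 and 2.81 for gl3 egl3 after the median of each array was subtracted.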

How the results depend on the processing

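No paired analysis was possible because each genotype has 1 array and the labels give no replicate numbers. For gl3 egl3 against the other 3 arrays, limma called 1 gene of the set, and 0 in the deposited values, 0 after cyclic loess, 0 with the array median subtracted, 6 without the level filter and 0 to 9 when 1 array was left out (9 without ttg1). The median difference over the set, 0.76, was 0.98, 0.83 and 0.85 under the 3 other scalings and 0.68 to 0.79 with 1 array left out. Over all probe sets this fit called 90, against 36, 0 and 27 under those scalings, 710 without the filter and 0 to 707 with 1 array left out. The calls were 85.6% higher, and 100% in the deposited values. For the pair ttg1 and gl3 egl3 against the other pair, the set's 0 calls became 0 to 9 with 1 array left out (9 without ttg1), and the 53 over all probe sets became 136, 104 and 137 under the scalings, 0 without the filter and 0 to 707 with 1 array left out.

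By size, 1 of the 43 genes was 2-fold lower in gl1, against 0 in the deposited values. The count was 7 with the median subtracted and 8 at 1.5-fold. In ttg1, 2 were higher in the deposited values, 2 lower with the median subtracted, and 3 higher and 3 lower at 1.5-fold, against 0 and 0. In gl3 egl3, 23 were higher and 1 lower at 1.5-fold, against 12 and 0. Of all 12601 probe sets, 399 were 2-fold lower in gl1 and 678 in ttg1 with the median subtracted. In the deposited values 109 of 12810 were 2-fold lower in gl1 and 804 higher in ttg1. At 1.5-fold, 742 of the 12601 were higher and 846 lower in gl1. The counts were 1095 and 1192 in ttg1, and 2029 and 2101 in gl3 egl3. Over all probe sets, counts in either direction were 362 in gl1 (792 deposited, 1588 at 1.5-fold), 701 in ttg1 (1102 and 2287) and 1765 in gl3 egl3 (2777 without the filter, 4130 at 1.5-fold).

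Among the genes checked, signs turned only in differences that limma called under no setting. All genes tested were checked for gl3 egl3 against the other 3, and selected ones in the other fits. The median over the set with the mutants against wild type, 0.13, was -0.16 with the array median subtracted and -0.084 without gl3 egl3. For ttg1 and gl3 egl3 against the others the median, 0.33, was -0.041 without gl3 egl3. With gl3 egl3 against the other 3, atpB (-0.03) was 0.36 in the deposited values, 0.091 after loess, 0.20 with the median subtracted and -0.088 to 0.061 with 1 array left out. psbC (-0.16) was 0.20 deposited, 0.042 with the median subtracted and -0.36 to 0.037 with 1 array left out, and psaB (0.01) was 0.56, 0.25 and 0.40 under the 3 scalings and -0.017 to 0.034. With the mutants against wild type, psaB (-0.01) was 0.20 deposited, 0.16 after loess and -0.034 to 0.017 with 1 array left out. psaC (-0.08) was 0.093 deposited and -0.82 to 0.37, ndhE (-0.001) 0.13 and -0.36 to 0.23, and ndhG (0.51) -0.065 to 0.93. With ttg1 and gl3 egl3 against the others, psaB (-0.05) was 0.23, 0.13 and 0.040 under the scalings and psbC (-0.08) 0.063 deposited and -0.48 to 0.32. There psbM (-0.26) ran from -0.63 to 0.11, psaC (0.85) from -0.19 to 1.89 and ndhE (0.26) from -0.33 to 0.85. The cause of these changes was not tested. One array per genotype limits every comparison.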

Other observations

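Of 24 nuclear genes for chloroplast RNA maturation and stability, 6 are named and 4 passed the level filter, and limma called none of the 4 in any fit. The median difference in gl3 egl3 was -0.42 over the 4, of which 1 was above wild type, and -0.24 over the 6. OTP84, an RNA editing factor gene, was at 6.66 in wild type, with gl1 at 6.73, ttg1 at 6.77 and gl3 egl3 at 6.05, and CRR22, another editing factor gene, at 6.35, 6.26, 6.08 and 5.72. CRR28, of the same protein family, was at 6.65, 6.95, 6.99 and 6.89. In gl3 egl3 OTP84 and CRR22 lay below the level filter of 6.26, which they passed through other arrays. The negative median over the 4 thus rests in part on values below the filter. Of 27 genes of chloroplast transcription, the 4 named are rpoA, rpoB, rpoC1 and rpoC2, which the chloroplast itself encodes, and none of the nuclear sigma factor genes is named. Of 9 senescence genes only SAG29 is named, at 4.92 in wild type, with gl1 at 5.93, ttg1 at 6.92 and gl3 egl3 at 6.07.

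Mitochondrial probe sets, found by symbol because their locus tags did not match, numbered 21. Their median difference in gl3 egl3 was -0.04, with a range from -0.93 to 1.07 and 8 of 21 above wild type (51.2% of all probe sets tested). Only 8 of the 21 passed the level filter, with a median of -0.04 and 3 above wild type, so most lay at signals below those of the chloroplast photosynthesis genes.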
